A study of Mus musculus with 2 samples.

Results

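The genes described here encode the subunits of the nuclear RNA polymerases, Pol I, Pol II and Pol III. Every gene symbol formed of Polr, the digit 1, 2 or 3 and a further letter was taken, which gave 28 of the 24421 symbols, and the digit assigned 5 to Pol I, 13 to Pol II and 10 to Pol III. RNA came from granulocyte-monocyte progenitors (GMPs) sorted from the bone marrow of female mice, with 1 bulk library from non-tumor-bearing (NTB) mice (NTB-GMP) and 1 library from mice carrying orthotopic implants of 4T1, a mouse mammary carcinoma line (4T1-GMP). The labels give both groups the same F1 semi-syngeneic (H-2b/d) background, while the methods of the study describe inbred mice. The labels give no age, no time after implantation and no number of mice per library, and the methods describe young adult mice. With 1 library per group there was no replicate error, so no test between the conditions was possible, and each interval below covers counting error in these libraries only.

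Transcription in the nucleus is divided among these enzymes. Pol I makes the ribosomal RNA precursor, Pol II makes messenger RNAs and many noncoding RNAs, and Pol III makes transfer RNAs and other short RNAs. Each has a catalytic center built from its largest and second-largest subunits, an assembly platform, a stalk that contacts the emerging RNA, and subunits of its own, and several small subunits are built into more than 1 enzyme. Blood progenitors divide rapidly, and making ribosomes is a large part of the work of a dividing cell.

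The authors deposited RPKM, reads scaled to gene length and library size, so levels can be compared between genes. Whole reads behind the RPKM were recovered from the digits of the values, as minimum numbers. The library sizes by which the values had been divided were 10180365 in NTB-GMP and 30016263 in 4T1-GMP, a depth ratio of 2.95. Differences are given as log2 ratios of 4T1-GMP over NTB-GMP after adding 0.1 RPKM, over the 10378 genes whose RPKM averaged 1 or more, and all 28 subunit genes were among them. The median log2 ratio of all genes tested was 0.05. Rn45s, the ribosomal RNA precursor made by Pol I, had 29065 RPKM in NTB-GMP against 11960 RPKM in 4T1-GMP and took 17.0% and 6.98% of the library sizes. This difference was not read as Pol I output, and its cause was not tested. Excluding Rn45s from both sizes would move every log2 ratio by -0.16, a shift that matters for the many subunits near 0. The median of all genes tested would then be -0.11. Of the 8 genes marking GMPs and their granules, 5 were above 0 (54.7% of all genes tested). At 0.5 or more were 4 (13.3% of all genes), Ms4a3 (1.35), Prtn3 (1.24), Ctsg (1.11) and Elane (0.66). At -0.5 or less were 3 (14.1% of all genes), Kit, Cd34 and Fcgr3. Mpo, the myeloperoxidase gene, was at 5163 and 5625 RPKM. Of the lymphocyte genes, Cd3e was at 0 and 0.0232 RPKM, and only Nkg7, a granule gene of cytotoxic cells, passed the filter, at 190.3 and 337.0 RPKM. The summed level of stem and early progenitor genes was 44.7 and 20.7 RPKM and that of erythroid and megakaryocyte genes 16.4 and 5.33 RPKM, with the globin genes Hba-a1 and Hbb-bs listed at 0. The 11 genes listed as neutrophil markers, granule genes such as Ltf and Camp among them, were all higher in 4T1-GMP (median log2 ratio 2.94). Their summed level was 512 RPKM in NTB-GMP against 4055 RPKM in 4T1-GMP. Of the 8 tested monocyte and dendritic genes, 7 had a log2 ratio of at most -0.5 (median -2.96), and Cd34, a progenitor surface marker, had 154 and 59.4 RPKM. The part of cell makeup in these marker differences and in the values below was not tested. In a bulk library fewer cells of a type and less RNA per cell cannot be told apart.

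Across the subunits, most Pol II genes were higher in 4T1-GMP while Polr2a, its largest subunit, was much lower, and the Pol III genes lay close together apart from Polr3d, Polr3gl and Polr3g. The 28 genes had a median log2 ratio of 0.10, and 22 of them were above 0, against 54.7% of all genes tested. With Rn45s excluded from library size, 11 of the 28 were above 0, against 39.1% of all genes. Only 5 subunits had a log2 ratio beyond 0.5 in either direction, which is a 1.41-fold difference. Polr2i and Polr2c were 0.5 or more higher, 2 of 28 where 13.3% of all genes were. Polr2a, Polr3gl and Polr3d were 0.5 or more lower, 3 of 28 where 14.1% of all genes were. These shares are close to those of all genes. The counting interval lay above 0 for 12 subunits (36.3% of all genes) and below 0 for 5 (28% of all genes). With Rn45s excluded from library size it lay above 0 for 8 (22.3% of all genes) and below 0 for 6 (41.6% of all genes).

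**Figure D1:**
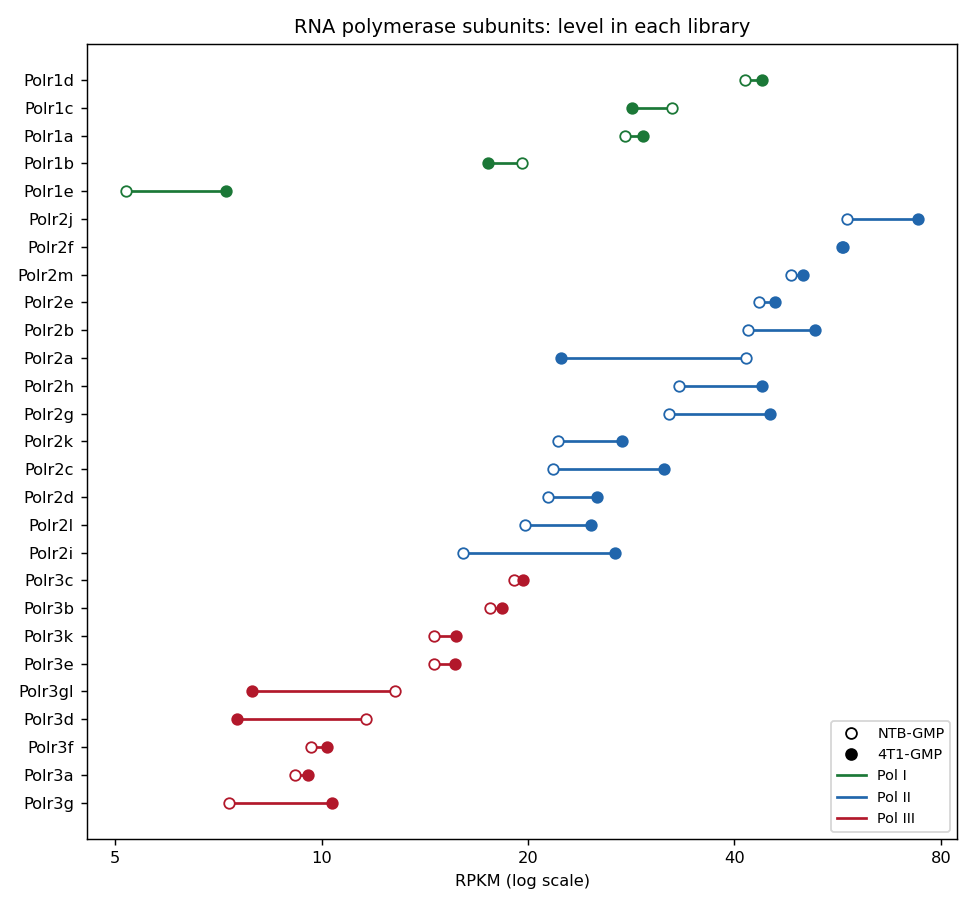
Level of the RNA polymerase subunit genes in RPKM on a log axis, with the open point for NTB-GMP, the filled point for 4T1-GMP and a line joining them, colored by polymerase. Pol II subunits sit between 16.1 and 74.1 RPKM and Pol III subunits between 7.32 and 19.7 RPKM, and Polr2a has the longest line toward lower levels in 4T1-GMP.

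Pol II genes had the highest levels and Pol III genes the lowest. In NTB-GMP the 13 Pol II genes ran from 16.1 to 58.3 RPKM with a median of 33.2 RPKM, the 5 Pol I genes from 5.19 to 41.4 RPKM with a median of 27.7 RPKM, and the 10 Pol III genes from 7.32 to 19.1 RPKM with a median of 12.2 RPKM. In 4T1-GMP the medians were 43.9 RPKM for Pol II, 28.4 RPKM for Pol I and 11.0 RPKM for Pol III. The order of the medians was therefore the same in each library, and every Pol III gene was below the Pol II median in both. Summed over members, Pol I came to 126.3 RPKM in NTB-GMP against 126.5 RPKM in 4T1-GMP, Pol III to 127.0 and 126.6 RPKM, and Pol II to 458 and 527 RPKM.

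By log2 ratio, the median was 0.32 for Pol II, 0.08 for Pol I and 0.07 for Pol III. The gap between Pol II and Pol I was 0.23 and that between Pol II and Pol III was 0.24, neither of which a common scaling of a library can alter, apart from the small effect of the added constant. Quantile normalization, which is not a common scaling, gave gaps of 0.25 and 0.09. The Pol I and Pol III medians lay near the median of all genes. With Rn45s excluded from library size both turned negative (-0.079 and -0.091), as did the median of all genes (-0.11). The Pol II median stayed above 0 (0.15). Gene length ran with this contrast. With all tested genes that have an annotated transcript ranked by length into 4 equal bins, the bin of shortest transcripts had a median log2 ratio of 0.18 and the bin of longest transcripts a median of -0.10. The bin of shortest transcripts held 8 of the 13 Pol II genes, whose median was 0.33, but also Polr3d and Polr3gl, whose median was -0.65. The part of transcript length in the difference between polymerases was not tested.

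**Figure D2:**
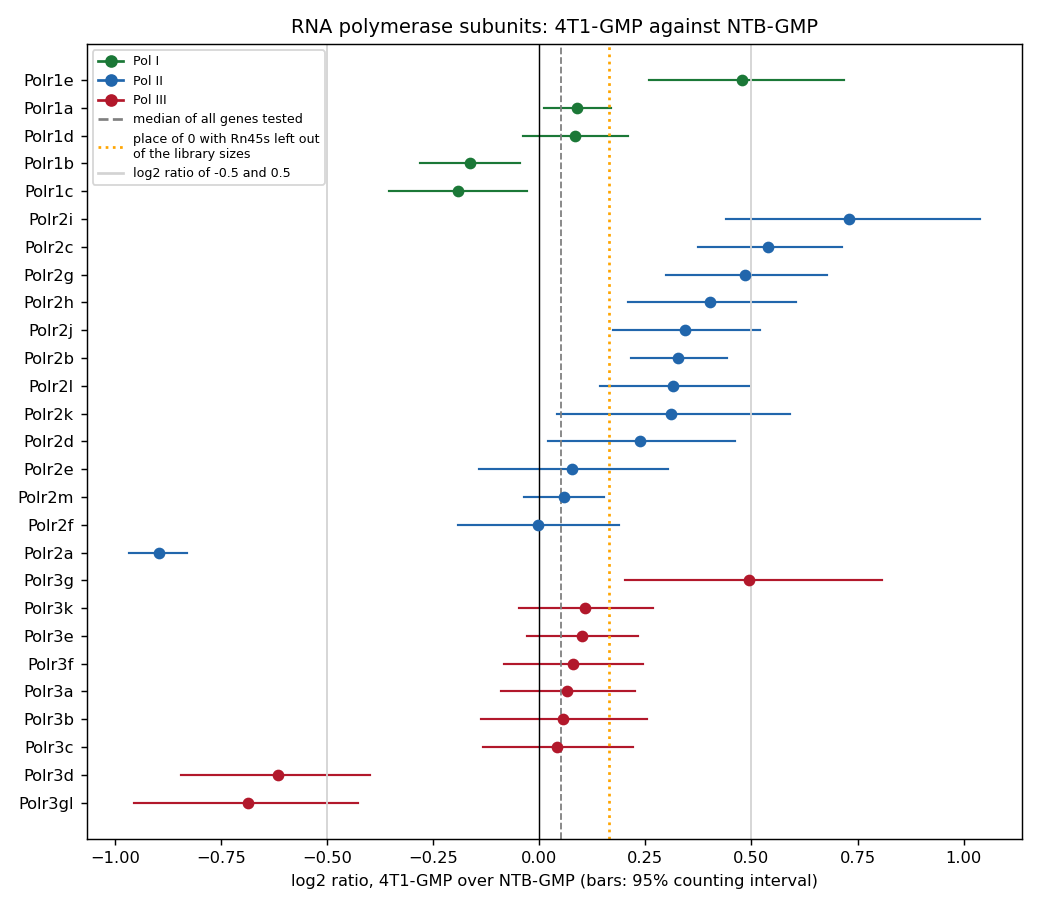
The log2 ratio of 4T1-GMP over NTB-GMP for the subunit genes (points) with its 95% counting interval (bars), grouped and colored by polymerase. The dashed line marks the median of all genes tested (0.05), the dotted line marks where 0 would lie with Rn45s excluded from library size, and Polr2a stands alone at -0.90 among Pol II genes.

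Polr2a encodes the largest subunit of Pol II, which forms the catalytic center with the product of Polr2b and carries the long C-terminal tail whose phosphorylation marks the stages of transcription. Polr2a had 41.6 RPKM in NTB-GMP against 22.3 RPKM in 4T1-GMP, from at least 2855 and 4513 reads. Its log2 ratio was -0.90 (95% Clopper-Pearson interval on the reads -0.97 to -0.83), a 1.86-fold lower level, and 5.97% of all genes tested had a ratio as low or lower. Polr2b had 41.8 RPKM in NTB-GMP against 52.5 RPKM in 4T1-GMP (log2 ratio 0.33, counting interval 0.22 to 0.44). The catalytic pair was thus at nearly equal levels in NTB-GMP, with a Polr2a to Polr2b ratio of 0.995, and at a ratio of 0.425 in 4T1-GMP. Within the libraries this ratio was 2.34 times as high in NTB-GMP as in 4T1-GMP (interval 2.14 to 2.57), a comparison that does not depend on library size. The ratio of the matching pair in Pol III was nearly equal in the libraries. Polr3a over Polr3b was 0.519 in NTB-GMP and 0.522 in 4T1-GMP, with a ratio of the 2 values of 1.006 (interval 0.844 to 1.198). Polr2a has a long transcript, 6740 bases in the annotation, and 19.1% of genes in the bin of longest transcripts had a log2 ratio of at most -0.5. The other subunits in that bin, Polr1a, Polr3a and Polr3b, had log2 ratios of 0.09, 0.06 and 0.06.

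The windows before the annotated starts of Polr2a, which had the lowest log2 ratio of the subunits, and of the alternative subunits Polr3g and Polr3gl, described further on, are shown because the within-library ratios of their pairs differed most of the 4 pairs compared. Each is the 250 bases upstream of the start on the minus strand, read 5′ to 3′ from RefSeq on GRCm38.p6, at chr11:69758634-69758883 for Polr2a, chr13:81711014-81711263 for Polr3g and chr3:96594182-96594431 for Polr3gl. Capitals mark TATAAA, the core promoter letters bound by the Tbp product, or CACGTG, the E-box sequence bound by MYC and related factors, each searched on both strands.
Polr2a: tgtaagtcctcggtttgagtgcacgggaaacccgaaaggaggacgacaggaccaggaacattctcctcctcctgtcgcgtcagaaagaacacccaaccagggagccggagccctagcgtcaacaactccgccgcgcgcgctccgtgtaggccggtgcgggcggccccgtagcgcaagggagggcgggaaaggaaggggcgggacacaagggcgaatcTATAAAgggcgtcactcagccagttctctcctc
Polr3g: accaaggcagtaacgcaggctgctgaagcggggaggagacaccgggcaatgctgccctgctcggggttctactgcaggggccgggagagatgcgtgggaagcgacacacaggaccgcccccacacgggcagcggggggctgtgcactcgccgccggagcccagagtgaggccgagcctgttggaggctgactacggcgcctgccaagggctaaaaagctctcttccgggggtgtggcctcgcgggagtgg
Polr3gl: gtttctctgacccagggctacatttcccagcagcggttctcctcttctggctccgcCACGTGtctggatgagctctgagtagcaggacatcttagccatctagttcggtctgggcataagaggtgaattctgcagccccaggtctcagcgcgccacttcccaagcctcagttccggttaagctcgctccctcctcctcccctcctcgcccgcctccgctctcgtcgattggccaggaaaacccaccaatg
The Polr2a window held 1 TATAAA, whose first base was 33 bases before the start, and this sequence was found in 12.4% of the 32851 windows of this length in the table. The Polr3gl window held 1 CACGTG, 194 bases before the start, a sequence found in 6.02% of windows. The Polr3g window held neither. The windows were 62.8% (Polr2a), 68.4% (Polr3g) and 59.2% (Polr3gl) G and C, against a median of 52.4% over all windows. These are matches of letters only and no binding was measured.

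The other Pol II subunits were, with few exceptions, higher in 4T1-GMP. Without Polr2a, the 12 remaining genes had a median log2 ratio of 0.32, 11 were above 0 (54.7% of all genes) and 9 had a counting interval above 0 (36.3% of all genes). Polr2a was set apart because of its own low value, and of all 13 Pol II genes 11 were above 0. With Rn45s excluded from library size, 9 of the 12 were above 0 (39.1% of all genes) and 6 had an interval above 0 (22.3% of all genes). Polr2i, which encodes a small zinc-binding subunit with a part in start site choice and in accuracy, had 16.1 RPKM in NTB-GMP against 26.7 RPKM in 4T1-GMP. Its log2 ratio was 0.73 (interval 0.44 to 1.04), the highest of the 28, from at least 113 and 554 reads. Polr2c, part of the assembly platform, had 21.7 and 31.6 RPKM (log2 ratio 0.54, counting interval 0.37 to 0.71). Both genes overlap a protein-coding gene on the other strand, Tbcb for Polr2i and Dok4 for Polr2c, as do Polr2b (Igfbp7), Polr2f (1700088E04Rik), Polr2h (Clcn2) and Polr2j (Lrwd1), and the sources used here do not state whether reads were counted by strand. Polr2j, the partner of Polr2c in the platform, had the highest level of the subunits in each library, 58.3 RPKM in NTB-GMP against 74.1 RPKM in 4T1-GMP (log2 ratio 0.34). The stalk is formed by the products of Polr2d and Polr2g. Polr2g had 32.1 and 45.02 RPKM (log2 ratio 0.49, counting interval 0.30 to 0.68), and Polr2d had 21.4 and 25.2 RPKM (log2 ratio 0.24, counting interval 0.02 to 0.46). Polr2m, which encodes a protein that associates with Pol II and restrains it, had 48.4 and 50.4 RPKM (log2 ratio 0.06), with an interval that held 0.

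The 5 subunits built into Pol I, Pol II and Pol III are listed under Pol II by their symbols. Polr2h had 33.2 RPKM in NTB-GMP against 43.9 RPKM in 4T1-GMP (log2 ratio 0.40, counting interval 0.21 to 0.60). Polr2l had 19.8 and 24.7 RPKM (log2 ratio 0.32, counting interval 0.14 to 0.50), and Polr2k, a small zinc-binding protein of the platform like Polr2l, had 22.1 and 27.5 RPKM (log2 ratio 0.31, counting interval 0.04 to 0.59). The remaining shared subunits differed less. Polr2e had 43.5 and 45.9 RPKM (log2 ratio 0.08, counting interval -0.14 to 0.30), and Polr2f had 57.6 and 57.5 RPKM (log2 ratio -0.00, counting interval -0.19 to 0.19). With Rn45s excluded from library size, Polr2e was at -0.09 and Polr2f at -0.17, so the direction of Polr2e depended on this choice. Leaving the shared subunits out of the groups gave a Pol II median of 0.34 and a Pol I median of 0.09, so the contrast remained without them. Pol I then held only 3 genes, and its 3 subunits under other symbols, given below, were not counted.

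Pol III showed a group of genes with near-equal levels in the libraries and 3 genes that departed from them. Polr3a, the largest catalytic subunit, had 9.15 RPKM in NTB-GMP against 9.57 RPKM in 4T1-GMP (log2 ratio 0.06), and Polr3b, the second largest, had 17.6 and 18.3 RPKM (log2 ratio 0.06). Polr3c and Polr3f, which help to open the promoter, were at 0.04 and 0.08, Polr3e at 0.10, and Polr3k, which has a part in RNA cleavage and termination, at 0.11. The counting intervals of these 6 held 0, and all 6 were below 0 with Rn45s excluded from library size (-0.12 to -0.06). Polr3d was the exception among the core genes of Pol III. It encodes the partner of the Polr3e product in a module with parts in initiation and termination, and it had 11.6 RPKM in NTB-GMP against 7.54 RPKM in 4T1-GMP. Its log2 ratio was -0.62 (interval -0.85 to -0.40), while Polr3e had 14.6 and 15.7 RPKM.

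The products of Polr3g and Polr3gl occupy the same place in Pol III and are alternatives to each other, with Polr3g known for expression in stem cells and tumor cells and Polr3gl for expression in most tissues. Polr3g had 7.32 RPKM in NTB-GMP against 10.3 RPKM in 4T1-GMP (log2 ratio 0.49, counting interval 0.20 to 0.81), from at least 114 and 475 reads. Polr3gl had 12.8 RPKM in NTB-GMP against 7.91 RPKM in 4T1-GMP (log2 ratio -0.69, counting interval -0.96 to -0.43), from at least 186 and 339 reads. Polr3gl was therefore the higher of the pair in NTB-GMP and Polr3g the higher in 4T1-GMP. The ratio of Polr3g to Polr3gl was 0.572 in NTB-GMP and 1.31 in 4T1-GMP, 2.29 times as high (interval 1.73 to 3.03). Polr3g made up 36.4% of their summed RPKM in NTB-GMP and 56.7% in 4T1-GMP, and the sum itself was 20.1 and 18.3 RPKM. In recovered reads, which for Polr3g may be too low by a common factor in both libraries, its share was 38.0% (Clopper-Pearson 32.5% to 43.8%) in NTB-GMP and 58.4% (54.9% to 61.8%) in 4T1-GMP. GENCODE M21 places Polr3g on chromosome 13 from 81673843 to 81711013 with no overlapping gene. It places Polr3gl on chromosome 3 from 96577872 to 96594181, where it overlaps Gm16253 on the other strand. Polr3g stayed above 0 and Polr3gl below 0 with Rn45s excluded from library size (0.33 and -0.85), under median-of-ratios scaling (0.49 and -0.69) and under quantile normalization (0.51 and -0.69).

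**Figure D3:**
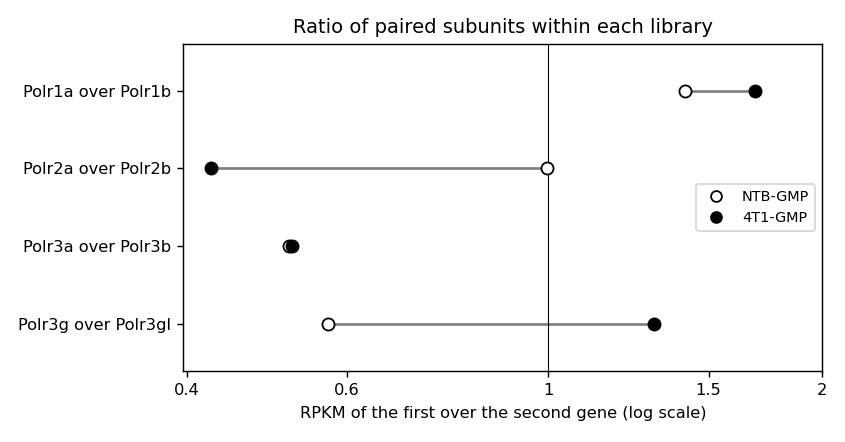
Ratio of the RPKM of paired subunits within each library on a log axis, for the catalytic pairs of Pol I, Pol II and Pol III and for the alternative subunits Polr3g and Polr3gl, with open points for NTB-GMP and filled points for 4T1-GMP. Polr2a over Polr2b moves from 0.995 to 0.425 and Polr3g over Polr3gl crosses 1, from 0.572 to 1.31, while Polr3a over Polr3b is 0.519 and 0.522.

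None of the 5 Pol I subunits was beyond 0.5 in either direction. Of all genes tested, 13.3% were at 0.5 or more and 14.1% at -0.5 or less. Polr1a, its largest subunit, had 27.7 RPKM in NTB-GMP against 29.5 RPKM in 4T1-GMP (log2 ratio 0.09, counting interval 0.01 to 0.17), and its direction turned with Rn45s excluded from library size (-0.07). Polr1b, the other catalytic subunit, had 19.6 and 17.5 RPKM (log2 ratio -0.16, counting interval -0.28 to -0.04). Within the libraries Polr1a over Polr1b was 1.41 in NTB-GMP and 1.69 in 4T1-GMP, 1.19 times as high (interval 1.08 to 1.32), a smaller shift than in the Pol II pair and in the opposite direction. Polr1c and Polr1d encode the pair shared by Pol I and Pol III that takes the place of the Pol II platform. Polr1c had 32.4 and 28.4 RPKM (log2 ratio -0.19, counting interval -0.35 to -0.03), and Polr1d had 41.4 and 43.9 RPKM (log2 ratio 0.08, counting interval -0.04 to 0.21). The partners thus lay on opposite sides of 0, but with Rn45s excluded from library size both were below it (-0.36 and -0.08). Polr1e, which belongs to the Pol I module that aids initiation and elongation, had the lowest level of all subunits in each library. It had 5.19 RPKM in NTB-GMP against 7.27 RPKM in 4T1-GMP (log2 ratio 0.48, counting interval 0.26 to 0.72), and it overlaps Fbxo10 on the other strand. Cd3eap, which encodes the partner of Polr1e but lies outside the naming rule, had 14.8 and 17.1 RPKM (log2 ratio 0.21, counting interval 0.03 to 0.39).

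The genes that recruit and regulate the polymerases were examined in lists, described by counts and medians. Of all genes tested, 54.7% were above 0 (39.1% with Rn45s left out), 13.3% at 0.5 or more and 14.1% at -0.5 or less, with a median of 0.05. The initiation factors of Pol II stood nearest to its subunits. Of these 18 genes, 16 were above 0 (12 with Rn45s left out), 5 were at 0.5 or more and none at -0.5 or less, with a median log2 ratio of 0.27. The highest were Gtf2h4, a subunit of the TFIIH complex that opens promoter DNA, at 8.04 RPKM in NTB-GMP against 14.97 RPKM in 4T1-GMP (log2 ratio 0.89), and Gtf2e2, a subunit of TFIIE, at 18.6 and 30.3 RPKM (log2 ratio 0.70). The lowest were Mnat1 (-0.08), which belongs to the kinase part of TFIIH, and Tbp (-0.07), the TATA-binding protein used by all 3 polymerases.

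The list of genes acting on the C-terminal tail of the Polr2a product had the lowest median of the lists of polymerase factors. It does not hold every such gene. The tail kinases Cdk7 (0.15) and Cdk9 (-0.10) were counted with the initiation and the elongation factors. Of 13 kinases, phosphatases and tail-binding proteins, 3 were above 0 (54.7% of all genes), 3 were at -0.5 or less (14.1% of all genes) and none at 0.5 or more (13.3% of all genes), and the median log2 ratio was -0.14. Scaf4, a tail-binding protein, had 18.1 RPKM in NTB-GMP against 11.5 RPKM in 4T1-GMP (log2 ratio -0.64), and Ctdsp2, a tail phosphatase, had 24.4 and 16.0 RPKM (log2 ratio -0.61). Ctdspl (0.49) and Ssu72 (0.46), phosphatases as well, were the highest of the list. The 23 pausing and elongation factors had a median of 0.06 with 14 above 0 (54.7% of all genes), or 7 with Rn45s left out (39.1% of all genes). Ell2, an elongation factor, was the highest at 3.36 and 7.01 RPKM (log2 ratio 1.04), followed by Hexim1, an inhibitor of the pause release kinase, at 0.52, and Ell (-0.40) and Ccnt2 (-0.34) were the lowest. Among the 14 assembly factors, the median was 0.05, with Gpn2 (0.69) and Gpn3 (0.50) the highest and Rpap1 (-0.33) and Tti2 (-0.26) the lowest.

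**Figure D4:**
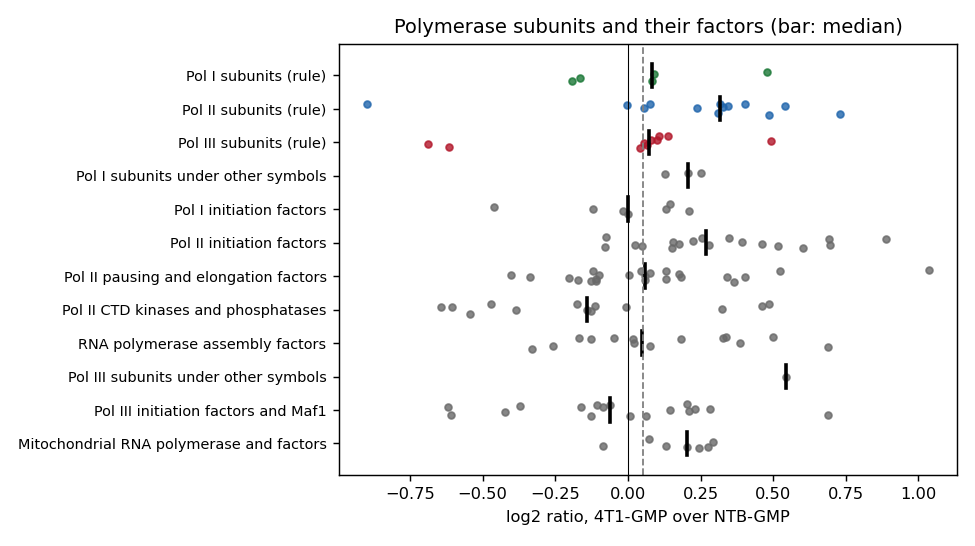
The log2 ratio of 4T1-GMP over NTB-GMP for each subunit and for each gene of the lists of polymerase factors (points), with the median of each list as a black bar and the median of all genes tested as a dashed line. Medians run from -0.14 for genes acting on the Pol II tail to 0.32 for Pol II subunits, apart from the single Pol III gene under another symbol at 0.54.

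For Pol I, the 3 subunits filed under other symbols were all above 0 (54.7% of all genes), or 2 of 3 with Rn45s left out (39.1% of all genes). Their log2 ratios ran from 0.13 for Twistnb through 0.21 for Cd3eap to 0.25 for Znrd1. The counting interval lay above 0 for 2 of the 3 (36.3% of all genes), and for none with Rn45s left out (22.3% of all genes). The 7 genes listed as initiation factors, with Ttf1, a termination factor by name, among them, had a median of 0.00. Rrn3, which links Pol I to its promoter factors, had 22.6 and 26.2 RPKM (log2 ratio 0.21), Ttf1 was at 0.15, and Taf1a and Taf1d, subunits of the promoter selectivity factor, were at -0.46 and -0.12. For Pol III, Crcp, a stalk subunit, had 11.8 RPKM in NTB-GMP against 17.2 RPKM in 4T1-GMP (log2 ratio 0.54, counting interval 0.21 to 0.90). The 17 Pol III initiation factors and regulators had a median of -0.06, with 8 above 0 (54.7% of all genes), or 5 with Rn45s left out (39.1% of all genes), 1 at 0.5 or more (13.3%) and 2 at -0.5 or less (14.1%). Snapc1 (0.69), a subunit of the complex that binds snRNA promoters, and Maf1 (0.28), a repressor of Pol III, were the highest. Brf1, the initiation factor for transfer RNA genes, had 20.1 and 13.05 RPKM (log2 ratio -0.62), and Snapc3 had 13.8 and 9.04 RPKM (log2 ratio -0.61). Subunits of a single complex therefore lay at both ends of the list. Polrmt, the mitochondrial RNA polymerase, had 9.30 and 8.75 RPKM (log2 ratio -0.09), and the median of its list of 7 genes was 0.20, with Mterf3 (0.29) and Tfam (0.28) the highest and Tfb1m at 0.07.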

How the data were processed

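Bulk RNA-seq of sorted GMPs was available from 1 NTB-GMP and 1 4T1-GMP library. The authors deposited 1 RPKM value per gene symbol and library. The submitters' processing notes name CASAVA 1.8.2, cutadapt 1.2.1, TopHat2 2.0.13, Picard 1.97, HTSeq 0.6.1, edgeR 3.12.1 and the build mm10, but the annotation, gene lengths and counting options are not given in the sources used here. The library sizes that make the values whole were not whole themselves (10180365.24 and 30016262.80), as after multiplication by a scaling factor. Reads were recovered for 14833 of 14833 genes above 0 as the smallest whole numbers that give both values, at least 9486697 and 26353075 in all, and the recovery was tested on simulated data. Log2 ratios used a pseudocount of 0.1 RPKM, which understates differences of low genes, and the filter kept genes averaging 1 RPKM or more. Intervals are 95% Clopper-Pearson intervals on the reads without the pseudocount, and those on a ratio of ratios are exact conditional intervals on the reads. PCR reads without molecular identifiers are not independent molecules.

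The subunits, the lists and the thresholds were chosen with earlier results of these data known. Named genes were the subunits beyond 0.5, the catalytic pairs, the shared subunits, Polr3g and Polr3gl, and the 2 highest and 2 lowest of each list, and the values of the other subunits were given as well, except for 1 Pol III subunit that is counted in the groups but not reported here on its own. The lists were written from knowledge of the complexes. Positions and transcript lengths came from GENCODE M21 (GRCm38, the assembly of mm10), with the longest transcript of each symbol, found for 96.5% of genes tested. Upstream sequences came from RefSeq, which had 22 of the 28 symbols. Alternatives were other pseudocounts, filters and thresholds, quantile normalization, median-of-ratios scaling, and library sizes without Rn45s. Python 3.11.15, numpy 2.4.6, scipy 1.17.1 and matplotlib 3.10.9 were used.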

Additional observations from a re-analysis of the deposited data

How the results depend on the processing

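Of 126 values of the 18 named subunits under 7 alternatives, 114 stayed within the counting error and 12 moved beyond it, all with Rn45s excluded from library size or with quantile normalization. Polr2a was at -1.06 and -1.04 under these, and no subunit beyond 0.5 turned direction. Leaving out Rn45s gave medians of -0.068 for all 28 subunits, -0.079 for Pol I and -0.091 for Pol III, against -0.11 for all genes. The counts above 0 were then 11 of 28 for all, 1 of 5 for Pol I and 1 of 10 for Pol III. Of all genes tested, 39.1% were above 0, close to the share of the 28. These follow from the common shift of -0.16. Leaving out Rn45s also left 1 gene at 0.5 or more, in Pol II. Quantile normalization put the Pol I median at -0.10 with 1 gene above 0. The count at 0.5 or more was then 1 for each polymerase, and the cause was not tested. The matching shares of all genes were not counted under quantile normalization, nor the share at 0.5 or more with Rn45s left out. With a threshold of 1 on the log2 scale and the deposited scaling, no subunit passed it in either direction (0 of 28). Polr2a did pass it with Rn45s excluded and under quantile normalization, at the values above. The share of all genes past this threshold was not counted. The gap between Pol II and Pol I medians stayed between 0.22 and 0.25 under the alternatives, and that between Pol II and Pol III between 0.09 and 0.24. No paired analysis was possible because the groups hold a single library each, so no replicate could be left out either. Depth limits the subunits with few recovered reads in NTB-GMP, such as Polr2i (at least 113) and Polr3g (at least 114).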
